A study of Mus musculus with 8 samples.

Results

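The genes that carry dietary fatty acids into the enterocyte and rebuild them into triglyceride were compared between the intestinal epithelium of WT and Rank-knockout mice on day 5 of lactation. The set was chosen by name, for each gene's step in this route: Cd36, Slc27a4, Fabp1, Fabp2, Acsl5, Mogat2, Agpat2, Dgat1, Dgat2 and Plin2. This set and the gene lists used below were chosen with earlier results of these data known. The set is 10 of the 54532 genes in the count table, and all 10 passed the filter on low counts. Each genotype had 4 mice and each mouse gave 1 library of intestinal epithelial cells, read by 3′ mRNA sequencing. Rank (gene symbol Tnfrsf11a) is the receptor for the osteoclast differentiation factor RANKL. Per the study's methods, the Rank-knockout dams carried floxed Rank alleles removed by Cre under the Villin1 promoter, which is active throughout the intestinal epithelium, so cells of other kinds kept the gene. All mice were females on a C57BL/6J background, littermates were used as WT controls, and the dams of both genotypes were mated to wild-type males. The study's methods give a broad age range for its mice in general and not the ages of these dams.

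As background, pancreatic lipase splits dietary triglyceride in the gut lumen into fatty acids and monoacylglycerol, which enter villus enterocytes through the brush border. Inside the cell, binding proteins hold the fatty acids, acyl-CoA synthetases activate them, and acyltransferases attach them to monoacylglycerol or glycerol 3-phosphate. The triglyceride that results is packed into chylomicrons for the lymph or held for a time in cytosolic lipid droplets.

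Of the 10 genes, 8 were lower in the Rank-knockout epithelium and none was higher (edgeR's quasi-likelihood test, Benjamini-Hochberg adjusted over 9855 genes, threshold 0.05). Over all tested genes, 14.6% were called lower and 15.8% higher. Cd36 fell furthest, to 27.6% of its WT level, while the other 7 that fell kept 52.0% to 61.4%. Fabp1 and Plin2 did not pass the test. The same 8 genes had no overlap between the genotypes, with every Rank-knockout library below every WT library, against 14.3% of all tested genes. The median log2 fold change was -0.73 over the 10 genes and 0.02 over all tested genes. Together the 10 genes took between 1.34% and 1.79% of a WT library's counts, and between 0.781% and 1.29% of those of a Rank-knockout library. In these bulk samples, fewer villus enterocytes and less RNA of these genes per enterocyte cannot be told apart.

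**Figure D1:**
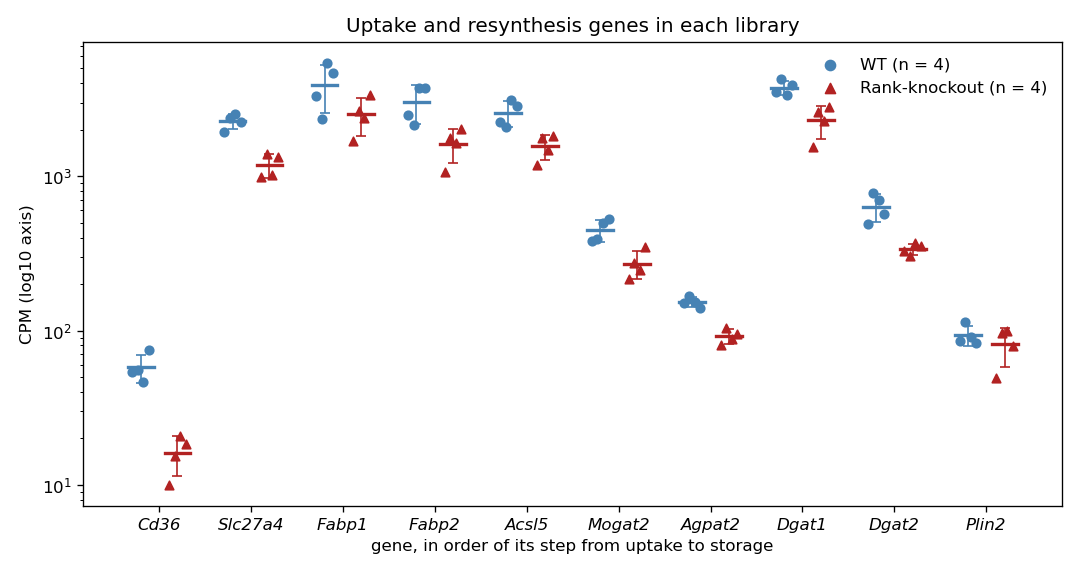
CPM (read counts scaled to a common library size, log10 axis) of the 10 genes in each WT library (blue circles) and each Rank-knockout library (red triangles), with the mean as a bar and the SD as whiskers (n = 4 per genotype). Every Rank-knockout point lies below every WT point for all genes but Fabp1 and Plin2.

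To show the DNA in front of these genes, the bases before the RefSeq start of transcription were read for the 7 genes with an entry, in GRCm38.p6. Mogat2, Dgat1 and Dgat2 are named only. Of these, 4 are printed: the paralogues Fabp1 and Fabp2, whose test results differed, and Cd36, which fell furthest, and Plin2, which was not called. They lie at chr6:71199629-71199826 (plus strand), chr3:122894822-122895071 (plus strand), chr5:17835897-17836146 (minus strand) and chr4:86670061-86670309 (minus strand). Each is written 5′ to 3′ on the gene's own strand, and capitals mark matches to the motifs described next.
Fabp1: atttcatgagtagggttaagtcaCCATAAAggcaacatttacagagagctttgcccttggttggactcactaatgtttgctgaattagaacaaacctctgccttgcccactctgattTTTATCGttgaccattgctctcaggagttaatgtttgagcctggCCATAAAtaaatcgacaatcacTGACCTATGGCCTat
Fabp2: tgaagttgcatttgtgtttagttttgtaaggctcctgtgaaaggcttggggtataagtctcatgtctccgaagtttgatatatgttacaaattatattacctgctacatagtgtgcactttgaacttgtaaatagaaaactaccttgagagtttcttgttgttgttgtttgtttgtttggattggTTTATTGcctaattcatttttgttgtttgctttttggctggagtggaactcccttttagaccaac
Cd36: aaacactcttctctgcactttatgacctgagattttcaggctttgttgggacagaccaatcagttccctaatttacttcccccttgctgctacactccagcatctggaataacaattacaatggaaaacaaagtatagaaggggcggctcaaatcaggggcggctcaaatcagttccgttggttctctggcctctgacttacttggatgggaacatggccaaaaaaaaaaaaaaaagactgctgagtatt
Plin2: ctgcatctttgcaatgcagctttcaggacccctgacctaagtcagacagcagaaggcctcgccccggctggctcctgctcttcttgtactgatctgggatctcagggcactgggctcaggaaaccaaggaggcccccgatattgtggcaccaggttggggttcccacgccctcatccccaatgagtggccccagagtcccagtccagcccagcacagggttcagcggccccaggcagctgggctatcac

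For the comparison, 4 motifs were searched on both strands of the 250 bases before each start. DR1, the direct repeat bound by PPAR with its partner RXR and by HNF4, was searched as AGGNCANAGGNCA, where N is any base, and was found in 0.338% of 32851 promoters. Among the 7 genes only Fabp1 held it, as TGACCTATGGCCT on the opposite strand, at -67 to -55 from the start. The CDX motif TTTATNG, named for the intestinal homeobox factors, was present in 9.81% of promoters. It occurred at 3 places before Fabp1 and at 1 place before Fabp2, the latter at -65 to -59. TATAAA was present in 12.4% of promoters and, among these genes, only before Fabp1, at -30 to -25. This lies past the end of the printed Fabp1 stretch, which stops where the GENCODE gene begins. The HNF4 motif CAAAGTCCA was present in 0.384% of promoters and before none of the 7 genes. The stretch before the Cd36 start lies inside the annotated gene, which has further starts upstream. These matches describe the letters only. The Mogat2 and Dgat2 genes, which encode related acyltransferases, lie on the same strand of chromosome 7 with 36364 bases between them.

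The uptake step was examined first. Cd36 (ENSMUSG00000002944, GRCm38 chr5:17781690-17888801, minus strand) encodes a scavenger receptor that binds long-chain fatty acids at the brush border. Its normalised level was 54.1, 55.2, 46.4 and 74.6 CPM in WT replicates 1 to 4. The Rank-knockout libraries held 9.98, 15.4, 20.7 and 18.5 CPM. The highest Rank-knockout value was under the lowest WT value, and the mean fell from 57.6 ± 12.0 to 16.1 ± 4.64 CPM (SD, n = 4 per genotype). The log2 fold change was -1.86 (SE 0.228, adjusted p = 0.000138), with a 95% interval from -2.34 to -1.38. The gene had 41 to 218 counts per library, the fewest of the 10, so that counting error weighs most on it. Cd36 is also among the lipid genes that the study itself named on these libraries, and its fall here is not independent evidence.

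Endothelial cells, macrophages and adipocytes also make Cd36, and their markers were therefore read in the same libraries. Of 8 adipocyte markers, 4 had no count in any library, Adipoq and Lep among them, and the summed level of the list was 0 to 2.74 CPM in WT and 0 to 0.450 CPM in Rank-knockout. Of 10 endothelial markers, Cdh5 and Gpihbp1 had no count, and the sums were 7.51 to 19.2 CPM in WT and 7.91 to 20.8 CPM in Rank-knockout. Esam was the only endothelial marker that could be tested, and it was not called (log2 fold change 0.39). Of 10 macrophage markers, Adgre1, Cd163 and Fcgr1 had no count, none could be tested, and the sums were 4.78 to 24.7 CPM in WT and 3.15 to 12.8 CPM in Rank-knockout. The part of these cells in the Cd36 difference was not tested.

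Slc27a4 (ENSMUSG00000059316, chr2:29802634-29817522, plus strand) encodes FATP4, a fatty acid transport protein with acyl-CoA synthetase activity. It held 1928, 2389, 2512 and 2249 CPM in WT and 990, 1385, 1021 and 1328 CPM in Rank-knockout. All Rank-knockout libraries were below all WT libraries, and the log2 fold change was -0.94 (SE 0.159, adjusted p = 0.000704). Slc27a4 was far more abundant in tags than Cd36 in every library.

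The 2 cytosolic binding proteins gave different test results. Fabp1 (ENSMUSG00000054422, chr6:71199827-71205023, plus strand), the liver-type protein, held 3293, 2354, 5375 and 4641 CPM in WT. Its Rank-knockout levels were 1682, 2654, 2383 and 3361 CPM. The ranges overlapped, since WT replicate 2 lay below 3 of the Rank-knockout libraries, and the gene was not called (log2 fold change -0.64, SE 0.254, adjusted p = 0.0737). Without WT replicate 2 the log2 fold change was -0.82 (edgeR adjusted p = 0.0101), and without Rank-knockout replicate 4 it was -0.80 (edgeR adjusted p = 0.0288). Fabp1 was also called lower with DESeq2 (adjusted p = 0.0411), with no filter on low counts (edgeR adjusted p = 0.00235) and with the replicate number as a block (edgeR adjusted p = 0.0296). The fit with no filter gave Fabp1, Fabp2, Dgat1 and Acsl5 the same SE of 0.159. Its p-value for Fabp1 therefore reflects little of that gene's own spread between mice. The smallest changes with 1 library left out came without WT replicate 3 (-0.45, edgeR adjusted p = 0.204) and without Rank-knockout replicate 1 (-0.48, edgeR adjusted p = 0.193). Fabp2 (ENSMUSG00000023057, chr3:122895072-122899506, plus strand), the intestinal-type protein, held 2482, 2143, 3752 and 3753 CPM in WT and 1069, 1781, 1631 and 2014 CPM in Rank-knockout. Its genotypes did not overlap, and the log2 fold change was -0.90 (SE 0.219, adjusted p = 0.00657). WT replicates 3 and 4 were the high libraries for both genes.

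Activation of the fatty acid was represented by Acsl5 (ENSMUSG00000024981, chr19:55251938-55297720, plus strand), a long-chain acyl-CoA synthetase. It held 2239, 2089, 3128 and 2865 CPM in WT and 1190, 1780, 1477 and 1813 CPM in Rank-knockout. The genotypes did not overlap, and the log2 fold change was -0.72 (SE 0.177, adjusted p = 0.00653).

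Resynthesis runs through 2 routes that meet at diacylglycerol, and each was represented here by 1 gene, which fell. Other genes of the glycerol 3-phosphate route, some of which rose, are given with the further genes of these steps. Mogat2 (ENSMUSG00000052396, chr7:99219084-99238619, minus strand) encodes the enzyme that acylates monoacylglycerol, the main route after a meal. It held 383, 392, 496 and 529 CPM in WT and 216, 276, 247 and 347 CPM in Rank-knockout, with a log2 fold change of -0.73 (SE 0.168, adjusted p = 0.00451). Agpat2 (ENSMUSG00000026922, chr2:26593057-26604417, minus strand) encodes an acyltransferase that makes phosphatidic acid on the glycerol 3-phosphate route. It held 151, 167, 153 and 140 CPM in WT and 80.9, 104, 88.1 and 95.2 CPM in Rank-knockout, the narrowest spread of the 10 genes in WT relative to the mean. Its log2 fold change was -0.74 (SE 0.137, adjusted p = 0.00124). The sense-strand counts of Agpat2, Mogat2, Fabp2 and Acsl5 exclude the antisense genes that overlap them.

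The last acylation, from diacylglycerol to triglyceride, can be made by either of 2 unrelated enzymes. Dgat1 (ENSMUSG00000022555, chr15:76502015-76511953, minus strand) held 3502, 4265, 3351 and 3896 CPM in WT and 1544, 2618, 2265 and 2790 CPM in Rank-knockout. Its log2 fold change was -0.70 (SE 0.180, adjusted p = 0.00821). Dgat2 (ENSMUSG00000030747, chr7:99153658-99182719, minus strand) held 487, 775, 701 and 567 CPM in WT and 328, 303, 369 and 351 CPM in Rank-knockout. Its log2 fold change was -0.91 (SE 0.159, adjusted p = 0.000865). Neither gene overlapped between genotypes, and Dgat2 varied less among the Rank-knockout libraries (SD 28.5 CPM) than among the WT libraries (SD 130 CPM).

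Plin2 (ENSMUSG00000028494, chr4:86648386-86670060, minus strand) encodes a coat protein of cytosolic lipid droplets that rises when cells store lipid. It held 85.6, 113, 90.2 and 82.5 CPM in WT. Its Rank-knockout levels were 49.3, 96.4, 99.8 and 79.6 CPM. Rank-knockout replicates 1 and 4 lay below the lowest WT library and the other two inside the WT range, and the gene was not called (log2 fold change -0.21, SE 0.201, adjusted p = 0.449, 95% interval -0.64 to 0.21). Without Rank-knockout replicate 1 the log2 fold change was -0.02 (edgeR adjusted p = 0.934).

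**Figure D2:**
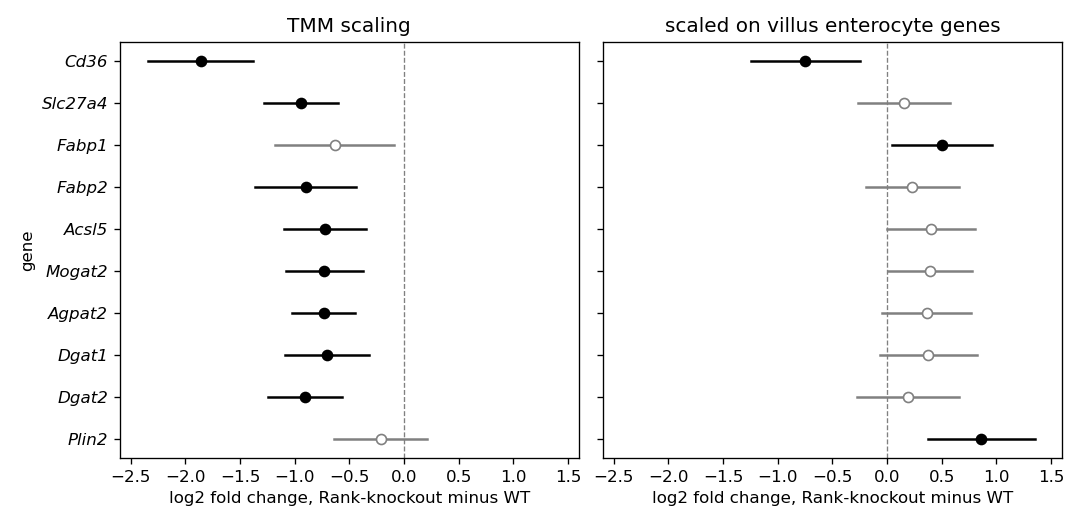
Log2 fold change (Rank-knockout minus WT) of the 10 genes with 95% intervals, under TMM scaling (left) and with libraries scaled on 12 villus enterocyte genes (right). Filled points passed the test and open points did not: 8 genes are filled below 0 on the left, and on the right Cd36 is filled below 0 and Fabp1 and Plin2 above 0.

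Because each transcript gives about 1 tag in this assay, CPM can be ranked between genes without division by length, although tag yield may differ by gene. By the WT mean the order was Fabp1, Dgat1, Fabp2, Acsl5, Slc27a4, Dgat2, Mogat2, Agpat2, Plin2 and Cd36. The first 5 were close: Fabp1 was above Dgat1 in 2 of 4 WT libraries and in 4 of 4 Rank-knockout libraries, and Acsl5 was above Slc27a4 in 3 of 4 and in 4 of 4. From Slc27a4 down to Agpat2, each gene stood above the next in all 8 libraries. Rank-knockout replicate 1 was the lowest of its genotype for 9 of the 10 genes, all but Dgat2. That library also had the lowest summed villus enterocyte markers of all 8 (6710 CPM) and the highest summed replication and cell cycle genes (1630 CPM). Without it 8 of the 10 genes were still called lower, and the part of these markers in the difference was not tested.

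The 12 villus enterocyte markers, genes of the mature absorptive cell such as Alpi, Lct and Sis, were all called lower, with a median log2 fold change of -1.13. Their summed level was 12600 to 19300 CPM in WT and 6710 to 9690 CPM in Rank-knockout. All 12 replication and cell cycle genes were called higher, with a median of 1.23, and their sums were 403 to 647 CPM in WT and 950 to 1630 CPM in Rank-knockout. The 9 genes of epithelial identity, which all gut epithelial cells share, had a median of -0.03, with 2 called lower and 3 higher. Their log2 fold changes ran from -0.80 for Vil1 to 0.81 for Cdx1, so that the median stands between opposite shifts. Their summed level, 9790 to 10800 CPM in WT and 8310 to 10700 CPM in Rank-knockout, was high in every library, as the label of epithelial cells requires. Paneth cell genes had 4 of 8 called higher, and goblet cell genes 4 of 7 lower and 2 higher. Of the genes that mark proximal small intestine, 1 of 4 tested was lower, and of the ileal genes none of 3 tested was called. The ileal bile acid binding gene Fabp6 stayed under the filter with 13 counts in WT and 85 in Rank-knockout. Of 8 T cell markers, 5 could be tested and none of these was called, and pancreatic acinar genes summed to at most 1.32 CPM. Tnfrsf11a itself, whose deleted part need not hold the 3′ tags, differed by -0.67 on the log2 scale (SE 0.221, edgeR adjusted p = 0.0321), and was found with counts in every Rank-knockout library.

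To ask whether the 10 genes moved more or less than the villus genes, the libraries were scaled so that the geometric mean of the 12 villus markers was equal in all 8. On this scale the median gene of the whole table rose by 1.13 and 84.8% of all tested genes were called higher, against 2 of the 10. Only 0.142% of tested genes (14) were called lower, and Cd36 was among them, at -0.75 relative to the villus genes (SE 0.239, edgeR adjusted p = 0.00739). Plin2 was higher by 0.86 (SE 0.235, edgeR adjusted p = 0.00236) and Fabp1 by 0.50 (SE 0.220, edgeR adjusted p = 0.0399). The other 7 genes ranged from 0.16 for Slc27a4 to 0.40 for Acsl5 and were not called. The 95% intervals of Slc27a4 (-0.26 to 0.58), Fabp2, Agpat2, Dgat1 and Dgat2 spanned 0, while those of Mogat2 (0.0041 to 0.78) and Acsl5 (0.0039 to 0.80) lay just above 0 before adjustment. The call of Fabp1 was lost in 5 of the 8 fits that left out 1 library (WT replicates 1 and 2, Rank-knockout replicates 2, 3 and 4), and without WT replicate 2 there were 6 genes called higher. Scaled instead on the epithelial identity genes, 9 of the 10, all but Plin2, were called lower and none higher, against 15.1% of all tested genes lower and 12.6% higher on that scale.

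Ratios of 2 genes within a library do not depend on scaling and were compared by an exact two-sided permutation test over 70 assignments of the libraries, with p-values adjusted over the 5 ratios. The log2 ratio of Fabp1 to Fabp2 was 0.41, 0.14, 0.52 and 0.31 in WT and 0.65, 0.58, 0.55 and 0.74 in Rank-knockout. The Rank-knockout libraries were above all WT libraries in 4 of 4, with a difference of 0.29 that had the smallest p this design can give (exact permutation p = 0.029, adjusted 0.14). The log2 ratio of Cd36 to Slc27a4 was -5.15, -5.43, -5.75 and -4.91 in WT and -6.62, -6.48, -5.61 and -6.16 in Rank-knockout. Of the Rank-knockout libraries, 3 of 4 lay below all WT libraries, with a difference of -0.91 (exact permutation p = 0.057, adjusted 0.14). For Dgat2 to Dgat1 the ranges overlapped, with means of -2.58 ± 0.277 and -2.74 ± 0.396 (SD, n = 4; exact permutation p = 0.57, adjusted 0.71). For Mogat2 to Agpat2, the 2 routes to diacylglycerol, the means were 1.54 ± 0.313 and 1.54 ± 0.217 (SD, n = 4; exact permutation p = 1.0). The log2 ratio of Plin2 to Plin3 was higher by 0.40 in Rank-knockout with overlapping ranges (exact permutation p = 0.20, adjusted 0.33). None of the 5 ratios passed the threshold after adjustment. A single ratio at the smallest p of this design reaches only 0.14 when adjusted over 5, so that these tests could hardly pass and the adjusted values do not show that the ratios were alike.

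**Figure D3:**
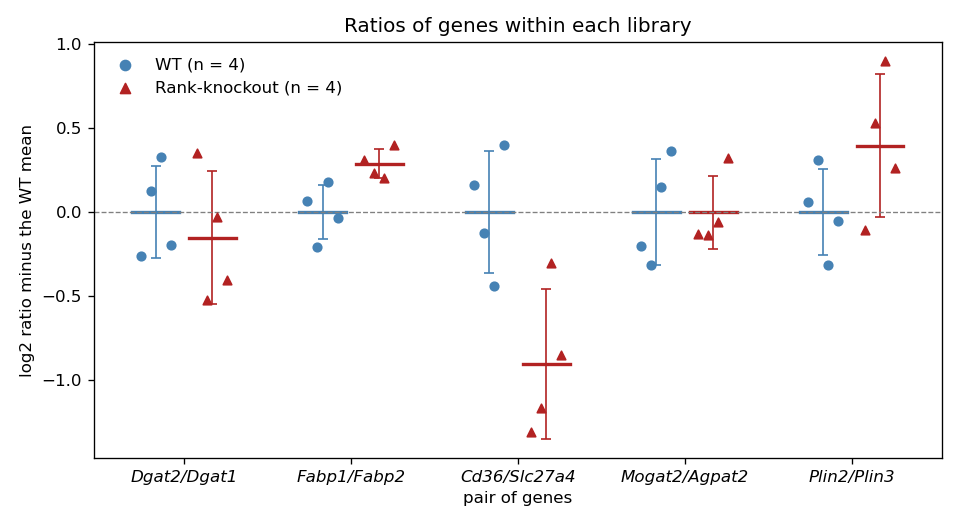
Log2 ratio of 2 genes in each library, less the WT mean of that ratio, for WT (blue circles) and Rank-knockout (red triangles), with means as bars and SD as whiskers (n = 4 per genotype). For Fabp1/Fabp2 the 4 Rank-knockout points lie above the 4 WT points, and the other 4 ratios overlap.

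Other genes of the same steps were listed by function. Of 57 listed, 31 passed the filter, 16 were called lower, 3 higher and 12 were not called, against the 14.6% and 15.8% of all tested genes. Their median log2 fold change was -0.48. With library totals in place of TMM, 10 were lower and 5 higher. That scaling moved the median of all genes to 0.22, with 8.72% of tested genes lower and 26% higher.

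Among 11 uptake and binding genes, 3 could be tested. Slc27a2, a very long-chain fatty acid transporter and synthetase, fell (log2 fold change -0.80, adjusted p = 0.0075) from 113 ± 13.7 to 65.5 ± 18.6 CPM (SD, n = 4). Got2, an aspartate aminotransferase of mitochondria that has also been described as a fatty acid binding protein, rose by 0.50 (adjusted p = 0.036), and this call was lost with DESeq2 (adjusted p = 0.0686), with no filter on low counts (edgeR adjusted p = 0.0534) and in the 6 fits that each left out 1 library other than WT replicate 2 and the fourth Rank-knockout replicate (edgeR adjusted p 0.0683 to 0.127). Among 6 further acyl-CoA synthetases, 1 of 3 tested fell, Acsl1 (log2 fold change -0.58, adjusted p = 0.0147), a call that was lost with library totals (-0.38, edgeR adjusted p = 0.0844).

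Of 12 other acyltransferases and lipins, 8 were tested, with 5 lower and 2 higher. The fallers with the smallest p were Gpat3, which starts the glycerol 3-phosphate route (log2 fold change -1.01, adjusted p = 0.000532), and the phosphatidic acid phosphatases Lpin3 (-1.01, adjusted p = 0.000615) and Lpin2 (-0.95, adjusted p = 0.000764). Gpat4, named here after its values were seen, encodes another enzyme for the same first step as Gpat3. It was not called (log2 fold change 0.30, adjusted p = 0.189), and its genotypes overlapped. Among WT libraries the mean level was 152.4 CPM for Gpat3 and 150.6 CPM for Gpat4. Among Rank-knockout libraries Gpat3 averaged 75.5 CPM and Gpat4 186.2 CPM, so a fall of this step as a whole was not shown. The 2 called higher were Agpat4 (1.15, adjusted p = 0.00613) and Agpat5 (0.94, adjusted p = 0.00298), members of the same family as Agpat2. Agpat4 held 8.65 to 15.0 CPM in WT and 19.0 to 44.4 CPM in Rank-knockout, and Agpat5 20.0 to 41.8 and 55.6 to 74.1 CPM. Agpat1 (-0.53, adjusted p = 0.00844) and Agpat3 (-0.51, adjusted p = 0.0233), named here after their values were seen, fell as Agpat2 did, so that the family held 3 genes that fell and 2 that rose, none with overlap between the genotypes. With library totals the calls of Agpat1 (-0.33, edgeR adjusted p = 0.0581) and Agpat3 (-0.32, edgeR adjusted p = 0.12) were lost, and that of Agpat3 also without the top 50 genes (-0.38, edgeR adjusted p = 0.0706), without WT replicate 4 (edgeR adjusted p = 0.0603) and without Rank-knockout replicate 1 (edgeR adjusted p = 0.0607).

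Of 11 other lipid droplet genes, 6 were tested, and 2 fell. Cidec, which helps droplets fuse, went from 99.8 ± 17.7 to 47.3 ± 3.77 CPM (SD, n = 4; log2 fold change -1.07, adjusted p = 0.000369). Plin3, a coat protein of newly formed droplets, went from 548 ± 79.2 to 353 ± 45.3 CPM (SD, n = 4; log2 fold change -0.63, adjusted p = 0.00517). Of 4 tested lipolysis genes, 3 fell: Lipe, the hormone-sensitive lipase (log2 fold change -1.07, adjusted p = 0.000191), Abhd5, the co-activator of adipose triglyceride lipase (-0.93, adjusted p = 0.00214), and Pnpla2, which encodes that lipase (-0.48, adjusted p = 0.0134). The call of Pnpla2 was lost with library totals (-0.28, edgeR adjusted p = 0.105) and with library sizes without the top 50 genes (-0.35, edgeR adjusted p = 0.0519).

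Of 8 regulators of fatty acid genes, 7 were tested, 4 fell and none rose. Creb3l3, a membrane-bound transcription factor of enterocytes and hepatocytes that acts on triglyceride metabolism, went from 563 ± 54.8 to 271 ± 47.4 CPM (SD, n = 4; log2 fold change -1.06, adjusted p = 0.000311). Hnf4g, a nuclear receptor of the villus epithelium, fell by 0.82 (adjusted p = 0.00266), and Rxra, the partner of many nuclear receptors, fell by 0.42 (adjusted p = 0.021). The call of Rxra was lost with library totals (log2 fold change -0.22, edgeR adjusted p = 0.175), without the top 50 genes (-0.29, edgeR adjusted p = 0.0861), with no filter on low counts (-0.38, edgeR adjusted p = 0.102) and without WT replicate 4 or either of the Rank-knockout libraries 1 and 3 (edgeR adjusted p 0.0541 to 0.0561). The fourth regulator counted, Nr1h3, named here after its values were seen, fell by 0.43 (adjusted p = 0.0327). Its call was lost with library totals (log2 fold change -0.23, edgeR adjusted p = 0.207), without the top 50 genes (edgeR adjusted p = 0.11), with no filter (edgeR adjusted p = 0.0895) and in 5 of the 8 fits that left out 1 library, WT 2 or 3 or Rank-knockout 1, 2 or 3 (edgeR adjusted p 0.0552 to 0.097). None of the 3 fatty acid sensors listed had enough counts to be tested.

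**Figure D4:**
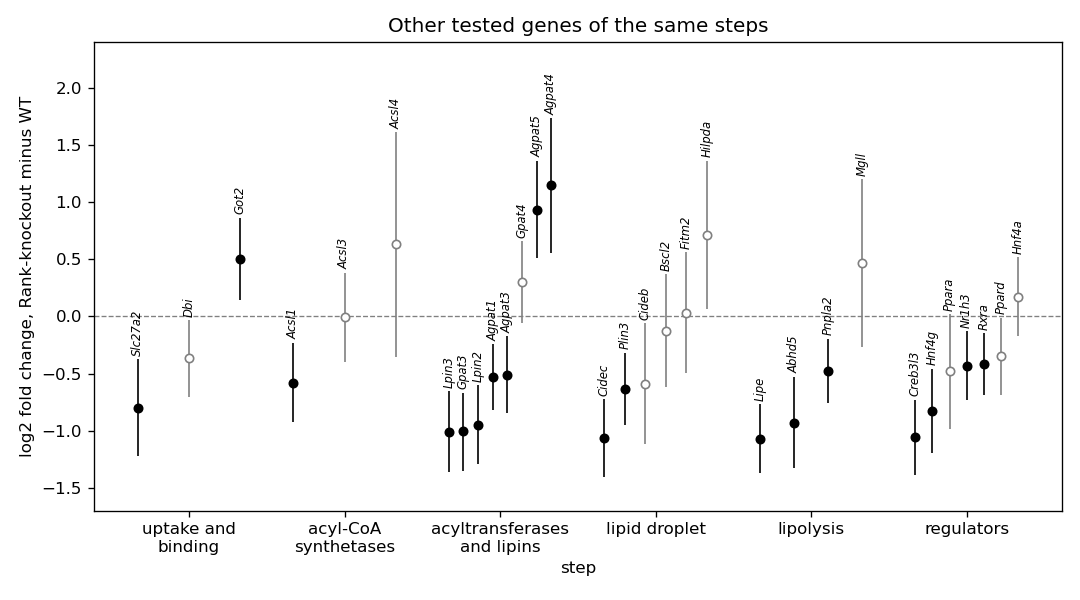
Log2 fold change (Rank-knockout minus WT) with 95% intervals for the 31 tested genes of the same steps, grouped by step and ordered by value within each. Filled points passed the test (16 below 0, 3 above 0) and open points did not.

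The genes nearest to the mean profile of the 10 over the 8 libraries were then found among all other tested genes, by the root mean square distance of centred log2 CPM. They were Tmem106a (0.0572), Gpt (0.0756), H2-T3 (0.0763), Pepd (0.0805) and Cyb5b (0.0890). Their log2 fold changes ran from -0.91 for Pepd to -0.76 for Cyb5b. The members themselves lay at 0.122 (Mogat2) to 0.545 (Cd36) from their own mean profile, so that Cd36, followed by Plin2 at 0.382 and Fabp1 at 0.306, departed from it most.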

How the data were processed

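Intestinal epithelial cells of 4 WT and 4 Rank-knockout mice were profiled with QuantSeq 3′ mRNA-Seq. The authors trimmed reads with BBDuk, removed abundant sequences with bowtie2, aligned with STAR against Ensembl's GRCm38 and its genes, and counted sense-strand reads per gene in featureCounts. The deposited values are these raw counts, 1530781 to 4335653 per library. No molecular identifiers are mentioned, so counts may include PCR copies. Labels do not say whether samples share a litter. Except in the fit with no filter, p-values measure the spread between these samples.

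Counts were tested with edgeR 4.0.16 (R 4.3.3; filterByExpr, TMM, robust quasi-likelihood F-test, genotype as the only term), with Benjamini-Hochberg adjustment over 9855 genes. CPM are counts over TMM-adjusted library sizes. A second fit set library sizes by the geometric mean of 12 villus enterocyte genes (prior count 2). Ratios used a prior count of 0.5. The code was tested on simulated data. Positions came from GENCODE M21, which held 54495 of 54532 identifiers, and promoters from RefSeq (GRCm38.p6).

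The members and lists were chosen with earlier results of these data known. The rule for named genes took all members, at most 3 called genes per step and direction by smallest p, the 5 genes nearest to the mean member profile, Tnfrsf11a, and markers that define cell types. Agpat1, Agpat3, Gpat4, Hnf4a, Ppara, Ppard, Nr1h3, Lpin1, Pparg, Fabp6 and Fgf15 fall outside it and were named after their values were seen. Alternatives were RLE, library totals, library sizes without the top 50 genes, no filter, genes averaging 5 CPM or more, DESeq2 1.42.0, limma-voom 3.58.1, thinning, a replicate block, other reference lists, a prior count of 2, and each library left out.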

Additional observations from a re-analysis of the deposited data

Results flagged for a closer look

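CPM of the 10 genes and the 5 log2 ratios were examined for a library far from the other 3 of its genotype, by Dixon's criterion for 4 samples. None of the 30 sets of 4 values passed it, where chance alone would give about 1.5. No second contrast or unused column was present to compare.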

How the results depend on the processing

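The number of the 10 genes called lower was 8 or 9 under all 17 alternatives and the number called higher was 0. The ninth gene was Fabp1, called with no filter (edgeR adjusted p = 0.00235), DESeq2 (adjusted p = 0.0411), the replicate block (edgeR adjusted p = 0.0296) and without WT replicate 2 or Rank-knockout replicate 4. In the fit with no filter, its SE of 0.159 was also that of Fabp2, Dgat1 and Acsl5. Library totals gave 10 other pathway genes lower and 5 higher. Of the 19 other pathway genes called, 12 kept their call in all of these alternatives and none changed direction. Relative to villus genes, the median of that list gave 1 gene higher and a Slc27a4 value of -0.018, and leaving out libraries gave 1 to 6 higher. With epithelial identity genes as the reference, 9 were lower and 0 higher. The log2 fold changes were -1.91 for Cd36, -0.99 for Slc27a4, -0.69 for Fabp1, -0.96 for Fabp2 and -0.78 for Mogat2. They were -0.77 for Dgat1, -0.94 for Dgat2, -0.78 for Agpat2 and -0.77 for Acsl5. Plin2, at -0.27, was not called (edgeR adjusted p = 0.299). That reference held genes that fell and genes that rose, and its median did not fall as that of the villus genes did. The genotype difference (Rank-knockout minus WT) in the log2 ratio of Mogat2 to Agpat2 ran from -0.11 to 0.12 with a library left out.

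Same-numbered libraries had correlations of 0.0517, 0.153, -0.139 and 0.323 for numbers 1 to 4. Libraries of different numbers had correlations from -0.353 to 0.249. These values are too few to settle whether the numbers mark pairs, and the main fit did not treat them as pairs. With the replicate block, 9 of the 10 genes were lower, 17 other pathway genes lower and 4 higher, and relative to villus genes 1 was lower and 2 higher. For the ratios, the block leaves a smallest possible exact p of 0.125, and no ratio passed. Cd36 had the fewest counts, 41 in 1 library, so that counting error weighs most on it, although Fabp1 had the larger SE (0.254 against 0.228).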

Other observations

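Some genes under the filter on low counts were not tested, and those named here were chosen after their values were seen. Lpin1, a phosphatidic acid phosphatase, had 3.04 to 4.11 CPM in WT and 3.60 to 9.38 CPM in Rank-knockout, with overlapping ranges (28 and 99 counts in all). Pparg, a nuclear receptor of fat storage, had 2.79 to 7.51 CPM in WT and 1.35 to 3.16 CPM in Rank-knockout, also overlapping (38 and 32 counts). Among ileal markers, Fabp6 held 0.666 to 2.28 CPM in WT and 3.38 to 9.76 CPM in Rank-knockout, with no overlap, while Fgf15, another ileal gene, had no count in any library. Of the other ileal markers, Slc10a2 (untested) averaged 0.680 CPM in the WT libraries against 0.615 CPM in the Rank-knockout ones, and the 3 tested had log2 fold changes of -0.41 (Osr2, edgeR adjusted p = 0.227), -0.30 (Ccl25, edgeR adjusted p = 0.22) and 0.88 (Bcl2l15, edgeR adjusted p = 0.227), none of them called.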
